A study of Mus musculus with 103 samples.

Results

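Lymphocyte identity is set by a small number of transcription factors, and 10 of their genes were followed here: the B lineage factors Pax5, Ebf1, Pou2af1, Bach2 and Lmo2 and the T lineage factors Tcf7, Lef1, Bcl11b, Satb1 and Ets1. Probe sets were found by gene symbol in the annotation of the Affymetrix array, and 9 of the 10 genes had at least 1, out of 12393 genes named by the array in all. Together they had 16 probe sets, with 4 for Ets1, 3 each for Ebf1 and Satb1 and 1 for each of the other genes. Tcf7 was not analysed here. A gene is described by the brightest of its probe sets, and its other probe sets are given where a call differed between them.

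The series set a labelling method for picogram amounts of RNA beside commercial kits, on 103 arrays of mouse RNA. The 45 arrays used here held 18 of sorted lymphocytes, 16 of tissue RNA and 11 of a cultured cell line named RAW267 in the labels. T cells and B cells were sorted from splenocytes of a single normal mouse and combined in 6 ratios, with 2 arrays per ratio of 100 cells and 1 per ratio of 500 cells. No strain, age or treatment was given, and because all lymphocytes came from that mouse, p-values measure the spread between sorted aliquots and arrays and not between animals. RNA of 8 tissues was on 2 arrays each: 500 pg labelled by the protocol of Biogen Idec, called BIIB, and 1 ug labelled by Affymetrix's one-cycle method. The RAW267 cells were sorted into samples of 50 to 10000 cells, and these and all lymphocyte samples were labelled by BIIB. Values are MAS5 signals, which have no unit and are scaled per array, so a level can be compared between arrays for a probe set but not between genes.

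In the B lineage, Ebf1 and Pax5 act in sequence to open and then hold the B cell programme, and Pou2af1 is a coactivator that joins the octamer-binding factors on immunoglobulin and other B cell promoters. Bach2 is a repressor that delays terminal differentiation in both B and T cells, and Lmo2 is an adaptor without DNA binding of its own that bridges GATA and E-box factors in blood progenitors and is also made in mature B cells. In the T lineage, Lef1 and Tcf7 are related HMG-box proteins that bind beta-catenin, Bcl11b is a zinc finger factor that seals T cell commitment, Satb1 organises chromatin loops in thymocytes, and Ets1 is a winged-helix factor of both lymphocyte lineages. Several act elsewhere too: Ebf1 in fat and stromal cells, Bcl11b and Satb1 in neurons, and Ets1 in endothelium.

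The sequences before the starts of Pou2af1, Ebf1 and Bcl11b are shown because the first and second had higher signals in unmixed B than in unmixed T cells and the third had lower ones. Each run holds the 250 bases before the start in RefSeq's annotation of GRCm38.p6, written 5′ to 3′ on the gene's own strand, with matches to the searched motifs in capitals. Pou2af1 lies on the plus strand at chr9:51213440-51213689, Ebf1 on the plus strand at chr11:44617850-44618099 (the first of 2 starts in the table) and Bcl11b on the minus strand at chr12:108003415-108003664.
Pou2af1: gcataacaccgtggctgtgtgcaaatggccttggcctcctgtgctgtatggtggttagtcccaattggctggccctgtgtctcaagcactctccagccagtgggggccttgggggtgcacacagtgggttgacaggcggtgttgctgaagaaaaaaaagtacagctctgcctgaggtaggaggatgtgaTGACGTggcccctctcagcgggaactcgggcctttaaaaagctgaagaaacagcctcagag
Ebf1: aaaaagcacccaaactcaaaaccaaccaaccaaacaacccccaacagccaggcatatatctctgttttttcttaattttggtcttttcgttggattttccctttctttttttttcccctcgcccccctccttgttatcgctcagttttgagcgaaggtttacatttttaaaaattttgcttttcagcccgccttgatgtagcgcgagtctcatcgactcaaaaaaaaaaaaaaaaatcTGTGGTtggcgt
Bcl11b: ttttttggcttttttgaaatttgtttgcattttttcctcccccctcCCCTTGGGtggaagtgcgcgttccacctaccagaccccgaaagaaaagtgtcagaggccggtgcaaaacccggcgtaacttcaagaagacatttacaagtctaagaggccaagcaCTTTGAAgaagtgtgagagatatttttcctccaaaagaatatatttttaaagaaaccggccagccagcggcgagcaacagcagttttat
Pou2af1 held a cyclic AMP response element core (TGACGT), a match that 6.47% of all 32851 such windows had. Ebf1 held a RUNX core (TGTGGT, 14% of windows), and Bcl11b held the EBF letters CCCNNGGG (11.8%) and the TCF/LEF letters CTTTGAA (4.46%). None of the 15 windows of the genes listed here held the octamer ATGCAAAT (1.6% of all windows), the TCF/LEF letters CTTTGAT (3.21%) or the GATA letters AGATAA (9.99%). The ETS letters CAGGAAG (10.8%) were found before Lef1 and Satb1, CCGGAAG (6.91%) before Bach2 and the E box CAGGTG (17.2%) before Satb1. Both strands were searched, and no searched motif holds another. A match is a description of letters and not of binding. No window was available for Lmo2 or Ets1, so these genes were not searched and no sequence of theirs is shown.

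The sorted cells carried the markers of their labels. The summed signal of 10 T cell genes was 196066 to 222726 on the 3 unmixed T arrays and 12332 to 27366 on the 3 unmixed B arrays, and that of 11 B cell genes was 21402 to 41512 and 628235 to 843540. Replicate arrays of 100 lymphocytes correlated at r = 0.590 to 0.651 over all probe sets (6 pairs), against 0.758 to 0.966 for RAW267 (5 pairs), and median signals were 776 to 1170 on lymphocyte, 431 to 970 on tissue and 368 to 570 on RAW267 arrays. The tissue labels brain and liver went against the data. On the arrays labelled brain, 0 of 5 liver genes and 4 of 4 brain genes were below a signal of 500 (20% of the common array mean), and the summed brain signal was 255 and 871. On those labelled liver it was 466101 and 213640, and 4 of 5 liver genes were below 500. These 4 arrays are therefore named "labelled brain" and "labelled liver".

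Lmo2 showed the widest gap of the 9 genes between unmixed B and T cells. Its signal was 50106 and 88404 on the 100-cell B arrays and 51532 on the 500-cell B array, against 44, 72 and 74 on the T arrays, so the groups were far apart and all T arrays were below 500. In the fit of the 12 arrays of 100 cells it was higher in B cells by 8.51 ± 1.06 (log2, SE; 2 arrays against 2; adjusted p = 0.00151), a scale of log2(signal + 125) that understates the change of dim probe sets. The call held in all 10 alternatives, with adjusted p between 1.802e-06 and 0.0472. Such a difference in RNA pools cannot tell fewer cells of a type from less RNA per cell.

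Pou2af1 was also higher in B cells. It read 26106, 31340 and 14102 on the B arrays and 631, 367 and 1321 on the T arrays, without overlap, the last of each being the 500-cell array. The difference was 5.56 ± 1.01 (adjusted p = 0.0309). This call was not stable: it held in 4 of 10 alternatives, with adjusted p from 0.000579 to 0.333, and was lost without any of the 4 unmixed arrays in turn (0.216 to 0.333). The difference itself stayed between 5.25 and 5.87 in those fits, where 1 type had a single array, assumed to vary like the other groups.

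These were the only calls among the genes, 2 of 9, where 0.240% of all 18318 probe sets were called and 0.164% were called higher. At an unadjusted p under 0.05 the counts were 5 of 9 and 1199. A call is an adjusted p under 0.05 in limma with at least a 2-fold change.

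Ebf1 also separated the arrays but missed the call. Its B arrays read 52314, 18677 and 38326 and its T arrays 1547, 1413 and 770. The 100-cell difference was 4.29 ± 1.06 (adjusted p = 0.182), and it was called when all 18 lymphocyte arrays entered the fit (4.67 ± 0.73, adjusted p = 0.00119). Its dimmer probe sets 1416302_at and 1448293_at did not overlap either and were higher at 500 cells by 4.84 and 1.77 (1 array against 1). Their 100-cell differences of 3.53 ± 1.33 and 1.48 ± 1.19 were not called (limma, adjusted p = 0.605 and 0.950).

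Lef1 and Bcl11b lay the other way. Lef1 read 14479, 3107 and 4437 on the T arrays and 26, 454 and 122 on the B arrays, all 3 of the latter below 500. Bcl11b read 4586, 3948 and 7007 on T arrays and 282, 420 and 678 on B arrays. Neither gene overlapped, but the 100-cell differences of -4.54 ± 1.49 (Lef1, adjusted p = 0.506) and -3.22 ± 1.02 (Bcl11b, adjusted p = 0.455) were not called. In the fit of all 18 arrays Bcl11b was called (-3.20 ± 0.73, adjusted p = 0.0452) and Lef1 was not, in any of its 10 alternatives (lowest adjusted p = 0.0649).

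Satb1, Ets1 and Bach2 were read in both cell types. Satb1 read 31962, 54097 and 29753 on T arrays and 31315, 7070 and 10749 on B arrays, where the first B array reached the T range. Ets1 read 4521, 9037 and 4287 on T arrays and 6059, 8913 and 2747 on B arrays, and Bach2 read 3685, 356 and 1449 on T arrays and 3447, 2065 and 1199 on B arrays. All 3 overlapped, with 100-cell differences of -1.47 ± 1.08, 0.20 ± 1.10 and 1.05 ± 1.29, each with an SE too wide to tell a several-fold difference from none. Probe sets of 1 gene disagreed here: Satb1 1416008_at (9312 ± 2500 in T, 4471 ± 1193 in B; SD, n = 3) and Ets1 1426725_s_at (4700 ± 1404 and 2475 ± 725) did not overlap, and at 500 cells Satb1 1436182_at was higher in B by 0.77 while 1416007_at was lower by -1.46.

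Pax5 gave almost no signal, although it is a defining factor of B cells. It read 409, 255 and 238 on the B arrays and 940, 156 and 109 on the T arrays, with all B arrays below 500. The difference was -0.28 ± 1.17. Its single probe set passed the signal minimum in this fit and in that of the 100-cell mixtures, where its slope was -2.24 ± 1.79 (limma, adjusted p = 0.936), and was below it in the other fits. The brightest array was a mixed one, at 2308. A low signal on 1 probe set does not show that Pax5 RNA was absent.

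Of the 9 genes, 5 had unmixed arrays that did not overlap (Ebf1, Pou2af1 and Lmo2 higher in B, Lef1 and Bcl11b higher in T), where 13.1% of 17263 probe sets did so. Of the myeloid markers, Mpeg1 was brighter on the B arrays and made up most of their highest sum, and no shift of the others as a set is read here. The summed signal of 10 myeloid genes was 5305 to 7905 on T arrays and 10760 to 112482 on B arrays, with Cd14 below 500 on all B arrays and Mpeg1 at 5886 to 100029 there against 46 to 711 in T cells. Lyz2 was at 416 to 2631 and Csf1r at 37 to 1482 on B arrays, and the part of these genes' cells in the Lmo2 difference was not tested.

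**Figure D1:**
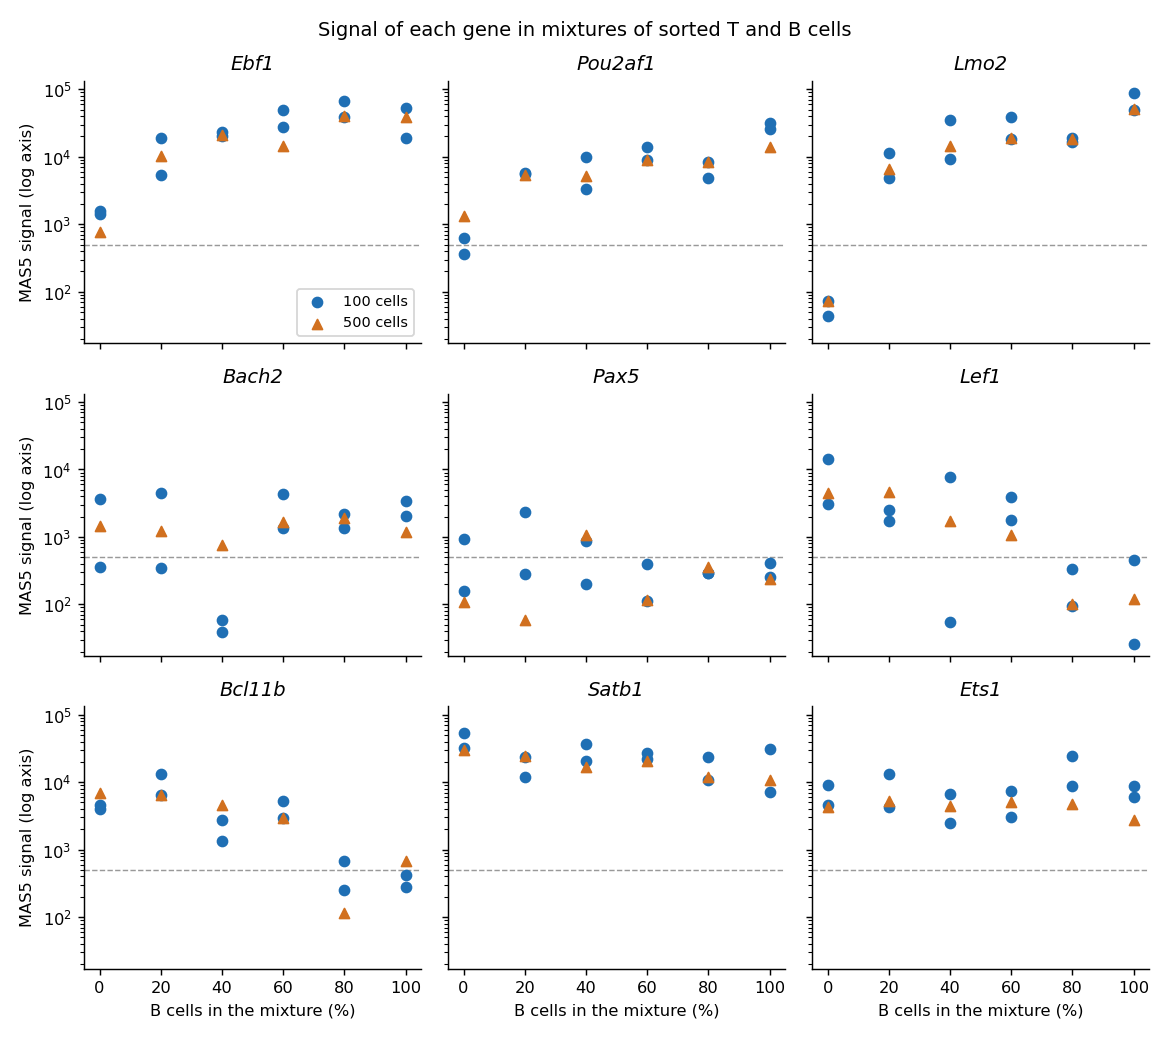
MAS5 signal (log axis) of the 9 genes against the percentage of B cells in the sorted mixture; blue circles are arrays of 100 cells (2 per ratio), orange triangles arrays of 500 cells (1 per ratio) and the dashed line the signal minimum of 500. Lmo2 lies below 100 on the 3 arrays without B cells and at 4927 or more on all others, while Lef1 and Bcl11b are dim at 80% and 100% B cells.

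The mixed arrays give a gradient that the unmixed comparison did not use. Lmo2 read 4927 and 11401 at 20% B cells in 100 cells and 6602 in 500 cells, 9359, 35255 and 14219 at 40%, 38862, 18301 and 18865 at 60%, and 16652, 18936 and 18345 at 80%. Every array with B cells was thus above every array without, and between 60% and 80% the signal did not climb further. Its slope from no B cells to all B cells, on the log2 scale, was 2.12 ± 1.74 over the 8 mixed arrays of 100 cells. Over the 6 arrays of 500 cells it was 6.41 ± 1.54. Here and below, the 500-cell slopes include the unmixed arrays and the 100-cell slopes do not, so their sizes are not alike.

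Pou2af1 in 100 cells read 5834 and 5627 at 20% B cells, 3377 and 9893 at 40%, 9061 and 13837 at 60% and 8507 and 4918 at 80%. All 8 mixed values lay above the unmixed T arrays and below the unmixed B arrays, with little order in between. At 500 cells it went from 5464 at 20% through 5143 and 9077 to 8459 at 80%, and its slopes were 0.73 ± 1.63 and 2.74 ± 0.87.

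In the mixtures of 100 cells, Ebf1 was brighter in those with more B cells, though the arrays at 60% and 80% overlapped. It read 19049 and 5301 at 20%, 23646 and 20139 at 40%, 49620 and 27825 at 60% and 66085 and 39427 at 80%, where the first array was brighter than any unmixed B array. In the mixtures of 500 cells Ebf1 did not rise at every step. Its place on the linear scale from unmixed T to unmixed B signal fell between 40% and 60% B cells, from 53.4% to 36.2%. It was 25.3% at 20% and 106% at 80% B cells. The slopes were 3.87 ± 1.63 and 4.64 ± 1.23.

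Bcl11b lay the other way across the same arrays. It read 13341 and 6363 at 20% B cells, 2750 and 1342 at 40%, 2938 and 5218 at 60% and 252 and 669 at 80%, and in 500 cells 6458, 4644, 2988 and 116. Only at 80% were its mixed arrays as dim as unmixed B cells. The slopes were -5.65 ± 1.84 and -4.38 ± 1.24. Lef1 read 1736 and 2503 at 20%, 55 and 7653 at 40%, 1763 and 3885 at 60% and 334 and 95 at 80%, so the replicates at 40% were the farthest apart, and its slopes were -3.59 ± 2.44 and -4.97 ± 0.91.

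No slope was called. In limma, 0 of 9 genes passed in the 100-cell mixtures (0% of 18271 probe sets; unadjusted p under 0.05 for 2 genes, Bcl11b and Ebf1, and 1108 probe sets). In the 500-cell series 0 of 8 passed (0% of 17396; unadjusted for 5 genes and 1294 probe sets), with adjusted p from 0.443 to 0.496 for Lef1, Lmo2, Ebf1, Bcl11b and Pou2af1. Satb1 (-0.22 ± 1.62 and -1.44 ± 0.76), Ets1 (1.51 ± 1.85 and -0.49 ± 0.78) and Bach2 (2.47 ± 2.46 and 0.23 ± 0.84) had slopes within about 2 SE of 0. The gradients at 100 and 500 cells were also compared by an interaction term over all 18 lymphocyte arrays. Its 100-cell slope included the unmixed arrays, so it did not compare the slopes given above. Levels were compared by a term for cell number at matched ratios. In the interaction and in the cell number term, 0 of 8 genes were called (0% of 18350). At an unadjusted p under 0.05 the counts were 0 of 8 in each, where 545 and 1051 probe sets had such a p. The differences between 500 and 100 cells at matched ratios ran from -0.64 ± 0.47 (Ets1) to 0.16 ± 0.59 (Bach2).

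**Figure D2:**
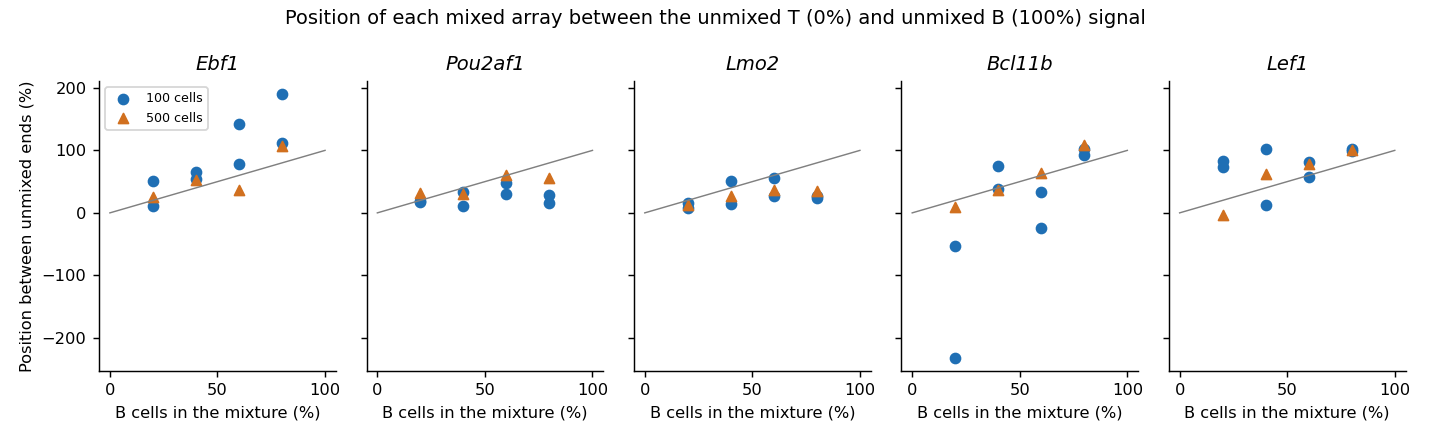
Position of each mixed array on the linear scale between the unmixed T signal (0%) and the unmixed B signal (100%) for the 5 genes whose unmixed arrays did not overlap, against the percentage of B cells mixed in; the grey line marks equality, circles are 100 cells and triangles 500 cells. Lmo2 lies below the line on 7 of 8 and 4 of 4 arrays, and Ebf1 above it on 7 of 8 and 3 of 4.

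On the linear scale a mixed signal can be placed between the unmixed ends. Lmo2 lay below its nominal share of B cells on 7 of 8 arrays of 100 cells and 4 of 4 of 500 cells, by a median of -19.8 and -18.0 percentage points. Pou2af1 was below on 8 of 8 arrays of 100 cells (-21.2 points) and on 2 of 4 of 500 cells (-4.71). Ebf1 was above on 7 of 8 and 3 of 4 (28.4 and 9.37 points), and Lef1 was nearer the B end than nominal on 6 of 8 and 3 of 4 (21.9 and 19.3). These placements carry no test, and each end rests on 2 arrays at 100 cells and 1 at 500 cells, so a single bright or dim end moves all positions of a gene the same way.

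Over the 18 lymphocyte arrays, which share the mouse and the gradient itself, log2 signals of Pou2af1 and Lmo2 correlated at r = 0.939, Ebf1 and Lmo2 at 0.885, Ebf1 and Pou2af1 at 0.797 and Lef1 and Bcl11b at 0.711. The values farthest from 0 for Pax5 and Ets1 were -0.299 (with each other) and -0.357 (Ets1 with Lef1). Over the 37 BIIB arrays used, the 2 genes most like Pou2af1 among 15223 probe sets were Ms4a1 (CD20, r = 0.969) and Cd22 (a B cell inhibitory receptor, 0.967). Those most like Lmo2 were Fcgr2b (the inhibitory Fc receptor, 0.840) and Swap70 (0.809). Fcgr2b, like Lmo2, was bright in B cells (47476 to 78343) and in RAW267 (6878 to 19565) and dim in T cells (48 to 195).

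The other genes of both lineages were counted in the fit of B against T cells at 100 cells. There 0.240% of 18318 probe sets were called and 0.164% were called higher. Of 20 further B lineage regulators and 20 further T lineage regulators with a probe set, 0 and 0 were called between B and T cells at 100 cells, with median differences of 0.62 and -0.64 against -0.05 over all probe sets. Of 12 B cell surface and signalling genes 6 were called higher in B cells (median 5.09): Cd79b (8.93 ± 1.07), Ms4a1 (6.93 ± 1.15), Cd22 (6.30 ± 1.03), Cr2 (6.17 ± 1.04), Blk (5.34 ± 1.02) and Blnk (5.33 ± 1.03). Of 12 T cell genes 3 were called lower (median -4.59): Cd3g (-7.98 ± 1.02), Cd5 (-6.17 ± 1.05) and Cd28 (-5.94 ± 1.00). In the fit of all 18 arrays these counts were 2 and 0 for the regulators and 8 and 7 for the surface genes. The surface gene counts dropped to 3 and 2 with a pseudocount of 1%, to 1 and 1 with the 4 unmixed arrays alone, and to 1 to 2 and 0 to 2 when any 1 unmixed array was left out, with 0 regulators called in each. A gene dim in 1 cell type passed the signal minimum only through arrays that held the other, so these counts are a description. The lists were not tested against each other.

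**Figure D3:**
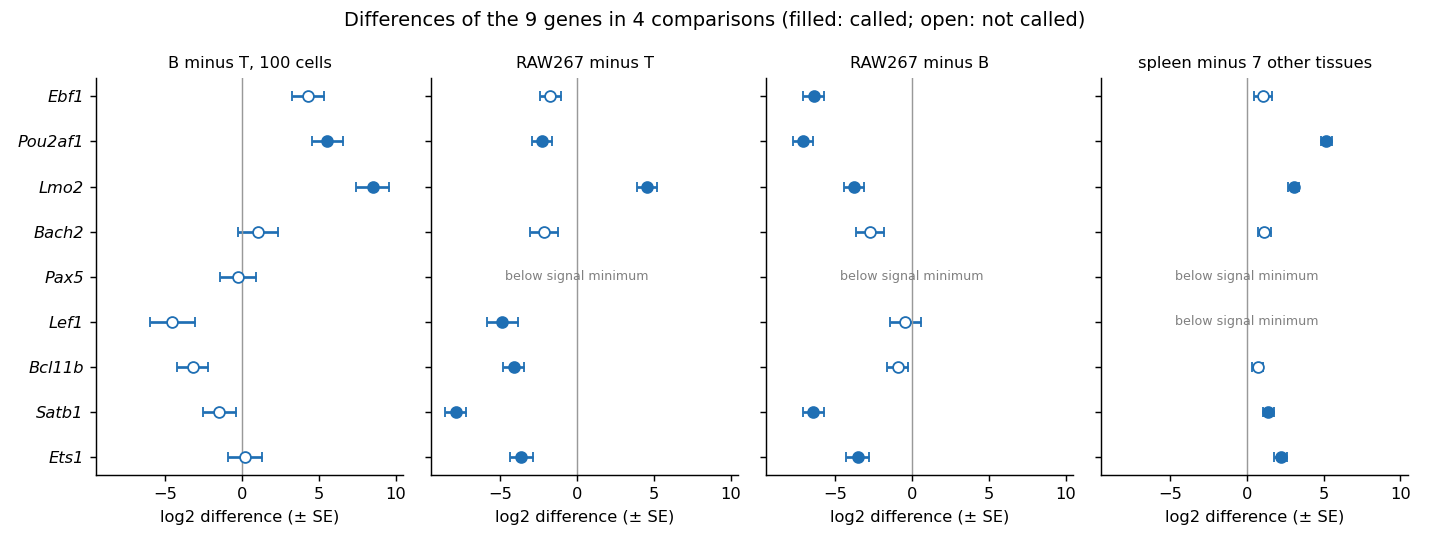
Log2 differences (log2 of signal plus 125; bars are ± 1 SE of the limma fit) of the 9 genes in 4 comparisons, with filled points called and open points not called. Lmo2 is the 1 gene that lies to the right both in B against T cells (8.51) and in RAW267 against T cells (4.56).

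In RAW267 cells, whose 10 myeloid markers summed to 435682 to 898630, Lmo2 was the 1 gene of the 9 with signal on all arrays. It read from 3302 to 8160 with a median of 5898 on 11 arrays, all above 500. The medians of the other 8 lay between 52 (Pax5) and 263 (Ets1), and only Ebf1 (595 on the 100-cell array) and Bcl11b (938 on 1 of the 50-cell arrays) exceeded 500, once each. Lmo2 did not move detectably with the number of RAW267 cells, at 0.20 ± 0.15 per 10-fold more cells (adjusted p = 0.400). It was the 1 gene bright enough to test there, where 1.55% of 11479 probe sets were called.

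At matched cell numbers, 3 RAW267 arrays were compared with the lymphocytes in a fit of 21 arrays. Against T cells 6 of 8 genes were called, where 5.18% of 17824 probe sets were. Apart from Lmo2, the tested genes were dim in RAW267 and passed the signal minimum through the lymphocyte arrays. A lower call was thus favoured in advance, and the count is a description. Lmo2 was higher (3302, 5682 and 3962 against 44, 72 and 74; 4.56 ± 0.65, adjusted p = 1.461e-04). Satb1 was lower by -7.90 ± 0.68 (5, 56 and 16 on the RAW267 arrays), Lef1 by -4.87 ± 1.02 and Bcl11b by -4.12 ± 0.68. Ets1 was lower by -3.62 ± 0.72, a call lost without the 100-cell RAW267 array (-3.32, adjusted p = 0.0533), though its other 3 probe sets were called lower too, by -4.77 to -5.50. Pou2af1 was lower by -2.30 ± 0.65 (adjusted p = 0.0432), a call lost under quantile scaling (-1.91, adjusted p = 0.134) and without any 1 of the 3 RAW267 arrays, the first 100-cell T array or the 500-cell T array (0.0845 to 0.220). With a pseudocount of 1% it was -3.61 and still called.

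Against B cells, with the same RAW267 arrays, 5 of 8 genes were called lower and 0 higher, where 2.89% and 2.17% of probe sets were and 5.05% in either direction. As against T cells, the genes other than Lmo2 passed the signal minimum through the lymphocyte arrays, so this count is a description. Pou2af1 was lower by -7.11 ± 0.65 (103, 9 and 12 against 26106, 31340 and 14102), Satb1 by -6.43 ± 0.68 and Ebf1 by -6.40 ± 0.69. Lmo2 was lower by -3.79 ± 0.65, so that RAW267 lay between the lymphocyte types for this gene without touching either range. Ets1 was lower by -3.54 ± 0.72, a call lost without the 100-cell RAW267 array (-3.25, adjusted p = 0.0659). Bach2 (-2.74 ± 0.91, adjusted p = 0.0800), Bcl11b (-0.92 ± 0.68) and Lef1 (-0.44 ± 1.02) were not called. Over all probe sets the median difference was -0.43 against T and -0.41 against B cells, and -0.06 and -0.03 after quantile scaling. With it, the share of calls that were higher went from 44.9% to 56.8% and from 42.8% to 54.9%. No called difference named here turned direction. Lef1, which was not called, ran from -0.89 to 0.08 against B cells over its alternatives.

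Of the regulators outside the 9 genes, 3 of 20 B lineage regulators were called higher in RAW267 than in T cells, namely Irf8 (2.95 ± 0.68), Xbp1 (2.92 ± 0.73) and Hhex (2.80 ± 0.81), and 1 lower, Bcl11a (-2.55 ± 0.68). Against B cells 5 of 20 were called lower, among them Spib (-4.87 ± 0.81) and Bcl11a (-4.76 ± 0.68), and 0 higher. Of 18 T lineage regulators, Stat4 and Zeb1 were called lower against T cells (-6.15 ± 0.99 and -4.29 ± 0.97) and also against B cells (-4.69 ± 0.99 and -6.26 ± 0.97). Of the surface genes 10 of 12 T cell genes were called lower than in T cells and 9 of 12 B cell genes lower than in B cells. Over all probe sets 5.18% were called against T cells and 5.05% against B cells, in either direction. A gene dim in RAW267 passed the signal minimum only if it was bright in lymphocytes, so these counts are a description.

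**Figure D4:**
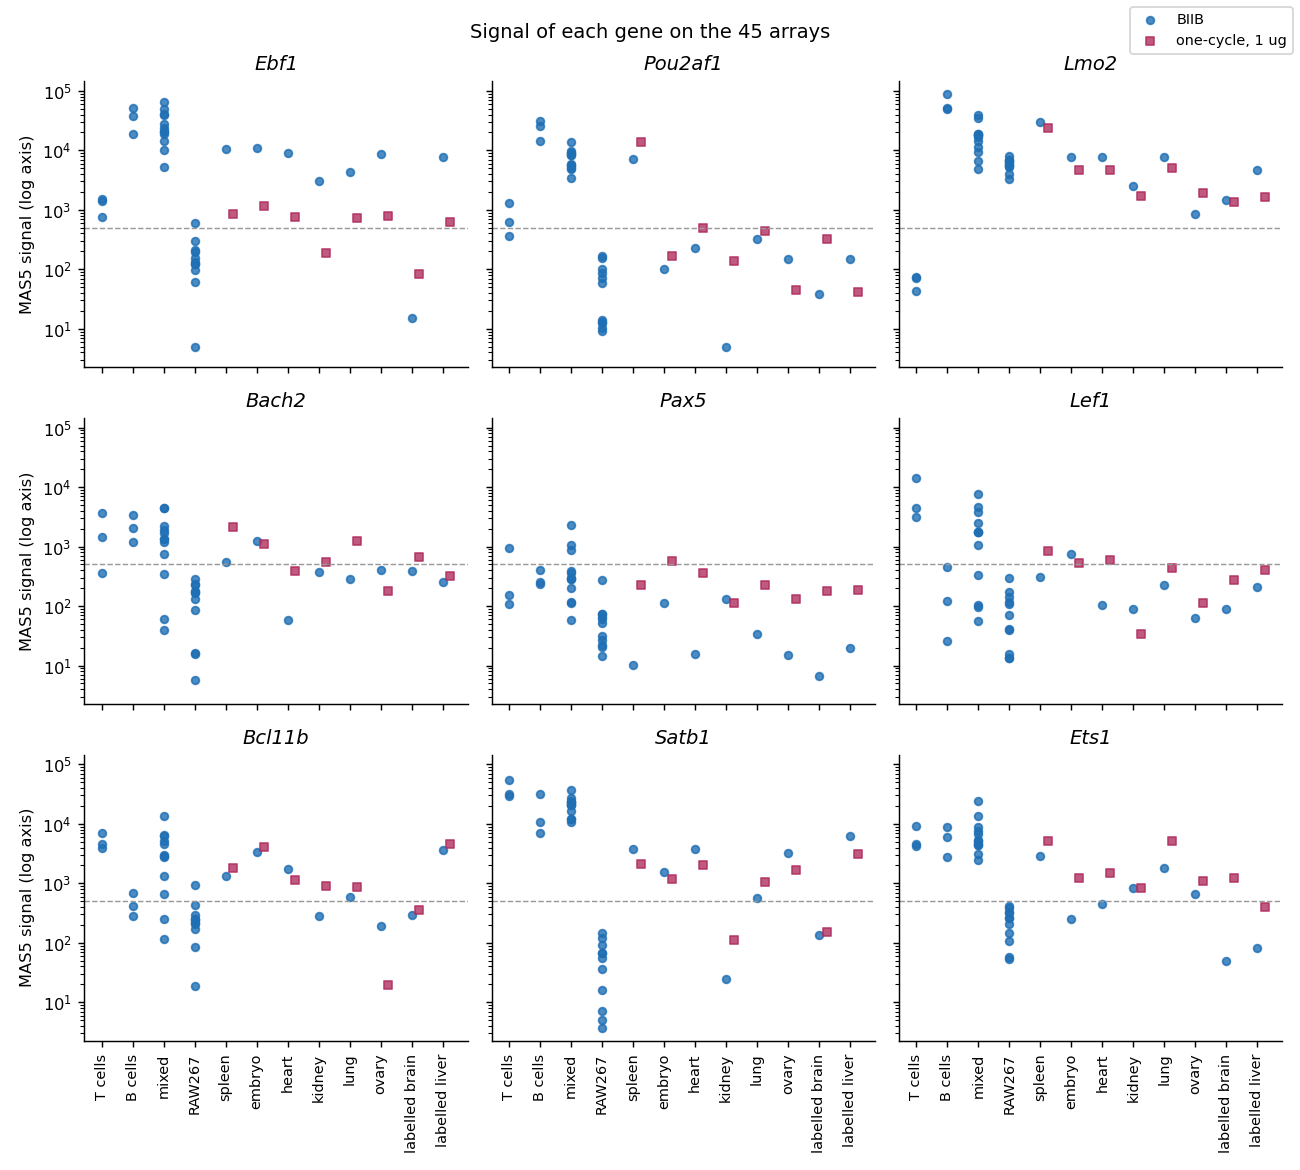
MAS5 signal (log axis) of the 9 genes on all 45 arrays by source; blue circles are arrays labelled by BIIB, red squares tissue arrays labelled by one-cycle from 1 ug, and the dashed line is the signal minimum of 500. Pou2af1 is above 1321, its highest T cell signal, in B cells, mixtures and spleen alone, Lmo2 is above 500 in every source but T cells, and Ebf1 squares lie below the circles in every tissue except the arrays labelled brain.

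In spleen, 4 of 7 genes were called higher than the mean of the other 7 tissues, where 34.2% of 15180 probe sets were called and 14.8% were called higher. Pou2af1 read 7292 by BIIB and 13890 by one-cycle, and at most 500 on the 14 other arrays. The difference was 5.18 ± 0.38 (n = 2 arrays; adjusted p = 2.287e-06). Its tissue signal is thus almost wholly that of the 2 spleen arrays, through which it passed the signal minimum. Lmo2 read 29544 and 23344 in spleen and 835 to 7741 elsewhere (3.05 ± 0.36, adjusted p = 5.414e-05), which sets it apart from Pou2af1 in that every tissue had signal.

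Ets1 was higher in spleen by 2.21 ± 0.42 (adjusted p = 0.00142), as were its 3 other probe sets, by 1.43 to 1.69. It read 2852 and 5094 there, with lung close by at 1792 and 5171. Satb1 was higher by 1.40 ± 0.36 (adjusted p = 0.00887), as were its 2 other probe sets by 1.04 and 1.09. It read 3808 and 2079 in spleen, below the arrays labelled liver, and its call was lost without the BIIB spleen array (1.10, adjusted p = 0.156).

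Bach2 (545 and 2161 in spleen; 1.13 ± 0.43, adjusted p = 0.0524), Ebf1 (10690 and 863; 1.05 ± 0.60) and Bcl11b (1334 and 1818; 0.70 ± 0.36) were not called. Bach2 was called under quantile scaling (1.20, adjusted p = 0.0364) and without the BIIB spleen array (1.76, adjusted p = 0.0492). Pax5 and Lef1 were below the minimum over the tissues, with spleen signals of 10 and 223 and of 305 and 834. The spleen arrays held B cell markers at 557303 and 451117 and T cell markers at 30887 and 34427. They also held myeloid markers at 487544 and 564253 and erythroid markers at 80644 and 140668, and the part of those cells in the Lmo2 difference was not tested.

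The same lists in spleen gave 8 of 16 B lineage regulators called higher and 1 lower (median 0.94 against -0.06 over all probe sets), led by Spib (4.41 ± 0.30) and Irf8 (3.29 ± 0.40), with Id3 lower (-1.21 ± 0.22). Of 10 T lineage regulators 3 were higher, among them Stat4 (3.47 ± 0.47), and 1 lower, Rora (-2.47 ± 0.31). All 10 tested B cell surface genes and 6 of 7 T cell surface genes were called higher. Over all 15180 probe sets 34.2% were called in either direction and 14.8% were called higher. A gene dim in the other tissues passed the signal minimum only if it was bright in spleen, so these counts are a description.

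Bcl11b and Satb1 were called in both directions outside spleen. Bcl11b read 3658 and 4613 on the arrays labelled liver (2.22 ± 0.36) and 3368 and 4059 in embryo (2.05 ± 0.36), above spleen in all 4 arrays, and 188 and 20 in ovary (-2.71 ± 0.36). Satb1 read 6284 and 3090 on the arrays labelled liver (2.11 ± 0.36), 3782 and 2004 in heart (1.36 ± 0.36), 25 and 110 in kidney (-3.14 ± 0.36) and 136 and 151 on the arrays labelled brain (-2.55 ± 0.36). All were called. In heart the Satb1 probe sets differed: 1416008_at was called too (1.05 ± 0.26), but 1436182_at was not (0.20 ± 0.32, adjusted p = 0.688). The brain markers named above were at 466101 and 213640 on the arrays labelled liver and at most 3234 on any other tissue array, and their part in the Bcl11b and Satb1 differences was not tested.

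Ets1 was higher in lung by 1.86 ± 0.42 (adjusted p = 0.00686), and its 3 other probe sets were called higher by 1.60 to 2.08. The call of the brightest probe set was lost without either lung array (1.94, adjusted p = 0.0736, and 1.77, adjusted p = 0.0862). Endothelial markers, 6 genes, summed to 104864 and 108958 in lung and to at most 29413 in any other tissue, and their part was not tested. On the arrays labelled liver Ets1 was lower (80 and 404; -1.89 ± 0.42), as were all its other probe sets. On the arrays labelled brain the brightest probe set was called lower (-1.24 ± 0.42, adjusted p = 0.0316), while the 3 others were at -0.28 to -0.72 and not called. In kidney it was the reverse, with 1452163_at called lower (-1.05 ± 0.25) and the brightest at -0.13 ± 0.42, not called.

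Ebf1 was read in all tissues by BIIB but on the array labelled brain, which stood at 15, against 3060 in kidney to 11108 in embryo. The arrays labelled brain were lower by -3.81 ± 0.60 (adjusted p = 3.930e-04), the 1 tissue call for this gene. The value was -1.93 without the BIIB array labelled brain and -5.69 without the one-cycle one, and was called both times (adjusted p = 0.00284 and 2.594e-06). Without the arrays labelled brain and liver Ebf1 was also called lower in kidney (-1.51 ± 0.26, adjusted p = 0.00223), where the fit of all tissues gave -0.90 ± 0.60. Lmo2 was lower on the arrays labelled brain (-1.63 ± 0.36), in ovary (-1.79 ± 0.36) and in kidney (-1.06 ± 0.36). The kidney call held in 2 of 6 alternatives and was lost with a pseudocount of 1% (adjusted p = 0.0717) and with no filter on low signal (0.0684). Pou2af1 passed the test in kidney (-1.44 ± 0.38) and on the arrays labelled liver (-1.19 ± 0.38), but its signals there were at most 151, every tissue array apart from spleen was at or below 500, and the mean of the other tissues holds the bright spleen arrays. No lower level in those tissues is read from these values.

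Counted by tissue, 5 of 7 genes were called on the arrays labelled brain (34.7% of probe sets), 4 on those labelled liver (34.7%), 3 in kidney (23.0%), 2 in ovary (15.4%) and 1 each in heart (22.6%) and lung (21.4%). Without the dim Pou2af1, 3 remain on the arrays labelled liver and 2 in kidney. In embryo 1 gene was called higher, where 10.3% of probe sets were. With 7 genes tested, each count lies within 3 genes of its background share, and nothing is read from the gaps. On the arrays labelled brain the median of all probe sets was -0.42, and -0.18 after quantile scaling, which moved the share of calls that were higher from 30.9% to 43.4% and ended the Ets1 call (-1.24, then -0.95, adjusted p = 0.125). The comparisons share their arrays. Calls were lost when 1 array was left out for Lmo2, Bcl11b and Ets1 without the BIIB array labelled brain (adjusted p = 0.0640, 0.0659 and 0.674), for Bcl11b without the one-cycle array labelled brain (0.0580) and for Satb1 without the BIIB heart array (0.227). The same held for Pou2af1 and Lmo2 without either kidney array (0.0552 to 0.246), Pou2af1 without the one-cycle array labelled liver (0.464), Ets1 without the BIIB array labelled liver (0.0516) and Lmo2 without the BIIB ovary array (0.211). Of these values, 3 also moved by over 1.5 times: Ets1 to -0.31 without the BIIB array labelled brain (and -2.18 without the one-cycle one), Pou2af1 to -0.53 without the one-cycle array labelled liver (and -1.85 without the BIIB one), and Lmo2 to -0.92 without the BIIB ovary array.

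Between the labelling protocols, Ebf1 differed most of the 7 genes tested. By BIIB its signal was 3060 to 11108 in the 7 tissues other than the arrays labelled brain, and by one-cycle 191 to 1153 in the same tissues, so that the ranges did not touch. The difference over 8 tissues was 2.72 ± 0.40 (adjusted p = 1.034e-04), and its probe set 1416302_at was higher by 1.51 ± 0.41. Ets1 went the other way (-1.32 ± 0.28, adjusted p = 0.00145, and -0.99 under quantile scaling, where it fell short of a 2-fold change), as did its probe sets 1426725_s_at (-2.11 ± 0.24) and 1452163_at (-1.85 ± 0.16) and the Satb1 probe set 1416008_at (-1.12 ± 0.17). The Ets1 probe set 1422028_a_at fell short of a 2-fold change (-0.70 ± 0.20). By gene, 2 of 7 were called where 36.6% of probe sets were, which is not above the background. The median of all probe sets was -0.27, and -0.04 after quantile scaling, with 33.5% and 46.8% of calls higher.

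By BIIB, the protocol that labelled all lymphocytes, the order of levels across sources can be read for each gene. Ebf1, Pou2af1 and Lmo2 were highest in B cells, with ranges clear of the next source, embryo for Ebf1 (11108) and spleen for the other genes (7292 and 29544). Lmo2 was lowest in T cells. Ebf1 was below 500 on the array labelled brain and on all but 1 RAW267 array, with no order between them. Lef1 was highest in T cells, followed by embryo (751), and B cells could not be told from the dim tissues next to them. Bcl11b in T cells (3948 to 7007) was closely followed by the array labelled liver (3658) and embryo (3368), each a single array. Satb1, Ets1 and Bach2 had their highest medians in the lymphocytes, with T and B ranges that overlapped. For Ets1 the spleen array (2852) lay inside the B range, and for Bach2 the embryo array (1231) lay inside both the T and the B range. Pax5 medians were below 500 in every source labelled by BIIB, so that no order is read.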

How the data were processed

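The authors deposited MAS5 signal intensities, linear and with 1 value for each probe set on each array, as the submitters' processing notes name the tool. Its version and settings are not given in the sources used here. Leaving out the highest and lowest 2% of probe sets, the mean of each of the 103 arrays lay between 2500.23 and 2502.45, so all had been scaled to 1 level.

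For the 45 arrays used, signals were set to the common mean of 2501 and turned into log2(signal + 125), the added amount being 5% of that mean. Probe sets whose mean over the arrays of a fit was under 500 (20%) were not tested, nor were 64 control probe sets. A gene dim in 1 group passed only through its level in another. Tests were two-sided in limma 3.58.1 with R 4.3.3 (lmFit and eBayes), adjusted by Benjamini-Hochberg over all probe sets tested, and the scripts were tested on simulated data. Figures and summaries used Python 3.11.15. Precision is limited by the number of arrays.

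The genes, lists and alternatives were chosen with earlier results of these data known. Named genes were all 9 genes with a probe set, list genes called in B against T cells, and the 2 genes most alike in log2 signal. List genes named for RAW267 and spleen were chosen after their values were seen. Of 22690 probe sets, 21071 were listed in the platform annotation, 20380 with 1 gene symbol, and none was named from the 691 with several. Promoter sequences came from RefSeq (GRCm38.p6).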

Additional observations from a re-analysis of the deposited data

Results flagged for a closer look

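Of 56 pairs of gene and tissue, 9 differed in direction between the 2 labelling protocols, each tissue being set against the other tissues of the same protocol on the log2 scale. Each rests on 1 array per protocol, and the difference was not tested. In the following, the BIIB value is given first and the one-cycle value second. Satb1 in lung was at -1.18 and 0.07. Ets1 was at 0.64 and -0.89 in kidney and at 0.33 and -0.48 in ovary. Bach2 was at -0.31 and 0.90 in lung, at 0.11 and -1.56 in ovary and at 0.0014 and -0.24 in kidney. Pou2af1 in heart was at -0.11 and 0.32, Lmo2 on the arrays labelled liver at 0.0097 and -1.18, and Ebf1 in lung at -0.0060 and 0.39.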

How the results depend on the processing

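Among the values of single genes under the alternatives run, 0 called values turned direction, 767 kept their side of the threshold, 34 lost a call and 13 gained one. Counts of genes called that moved by over 1.5 times were as follows. For B against T cells, 2 genes became 1 with a pseudocount of 1% or with the 4 unmixed arrays alone (Pou2af1 lost), 4 with all 18 lymphocyte arrays (Ebf1 and Bcl11b gained) and 1 to 1 when each unmixed replicate was left out. Over all probe sets the 44 calls were then 25, 12, 134 and 8 to 22. Under quantile scaling heart had 2 (Bach2, -1.25, adjusted p = 0.0403, added to Satb1) and the protocol comparison 1. Of 15180 probe sets, 3502 and 5079 were called in these fits. Without the 4 arrays labelled brain and liver, an alternative chosen after seeing the data, embryo had 3 (Pou2af1 and Ets1 added, both lower). There 2400 of 14819 probe sets were called. Pou2af1 read only 102 and 165 in embryo, and the mean of the other tissues holds the bright spleen arrays, so no lower level is read. Leaving out each array of a tissue gave 2 to 4 genes on the arrays labelled brain, 0 to 1 in heart, 1 to 2 in kidney, 0 to 0 in lung and 1 to 2 in ovary. The cause of each was not tested.

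The replicate numbers were not used to pair the samples in the main fits. Same-numbered arrays of 100 lymphocytes correlated at 0.013 to 0.086 after group means were removed. Those of RAW267 correlated at -0.049 to 0.235, with 1 of 10 values over 0.1. With the replicate block 2 genes were called between B and T cells, with 34 probe sets in all, and 0 genes in the mixture slope at 100 cells and in the RAW267 trend. In that trend calls over all probe sets went from 178 to 609. Its block fit also left out the single 100-cell array, so the block and the change of arrays cannot be told apart. With all 11 RAW267 arrays, Ebf1 (-1.99) and Bach2 (-2.55) were also called lower than in T cells and Bach2 (-3.16) lower than in B cells. The limits are the arrays: 2 of each unmixed type at 100 cells and 2 per tissue, each of another protocol. No detection calls were used, so signals below 500 give no order.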
